A study of Mus musculus with 8 samples.

Results

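The 39 genes described here encode the glucose transporters, the enzymes of glycolysis, the makers and carriers of lactate, the kinases that switch off pyruvate dehydrogenase, and the enzymes of the pentose phosphate pathway. They were taken by name from a list and all 39 were among the 23993 genes of the deposited table. RNA was sequenced from thoracic aortas of male C57BL/6 mice aged 24 weeks. Both groups shared the mT/mG fluorescent reporter, the Myh11-CreERT2 transgene (Cre driven by a smooth muscle promoter and switched on by tamoxifen) and tamoxifen at 1.5 weeks. The 4 controls had wild-type Tsc1 (Myh11-CreERT2.mT/mG), and the 4 knockouts had floxed Tsc1 on both alleles (Tsc1fl/fl.Myh11-CreERT2.mT/mG). Tsc1 is part of the complex that holds back the growth kinase mTORC1, and the comparison sets vessels deleted for it in smooth muscle against vessels that kept it. Cre was restricted to Myh11-expressing cells, whereas the RNA came from crushed whole aortas, so cells without Cre were sampled too.

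Glycolysis splits glucose into pyruvate in the cytosol. Pyruvate then enters mitochondria through pyruvate dehydrogenase or becomes lactate, which leaves the cell on monocarboxylate transporters. The pentose phosphate pathway branches off after the hexokinase step and yields NADPH and ribose phosphate. Many steps have a ubiquitous isoform and another that is prominent in muscle, heart, liver or brain. Arterial smooth muscle is known for making lactate even when oxygen is plentiful, and mTORC1 is known to raise glycolytic and pentose phosphate genes in cultured cells.

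Levels are in FPKM, fragment counts scaled to transcript length and sequencing depth, so that levels of different genes can be compared. Per-library values are listed in the order of the replicate numbers. Means are given ± SD with n = 4 libraries per group. Differences are knockout minus control on the log2(FPKM + 1) scale, which understates the change of low genes, with the standard error (SE) and adjusted p of limma. A gene is said to have risen or fallen where its Benjamini-Hochberg adjusted p over all 12107 tested genes was under 0.05. Tsc1 itself measured 4.03, 4.82, 4.95 and 6.32 FPKM in the controls, against 2.99, 3.58, 3.37 and 3.71 in the knockouts. It fell without overlap between the groups (log2 difference -0.44, SE 0.12, adjusted p = 0.019), although FPKM over the whole gene also count recombined transcripts and cells without Cre. The summed level of 8 smooth muscle markers was 17260.1 to 17657 FPKM in controls and 11313 to 15127 in knockouts, and 5 of the 8 fell. Of the endothelial markers 6 of 8 fell, with sums of 195 to 275 against 102 to 164 FPKM. Of the fibroblast markers 3 of 6 fell, with sums of 1234 to 1519 against 807 to 1149.5. The other fibroblast markers did not pass, with Pdgfra (log2 difference 0.26) and Lum (0.38) leaning higher and Dpt (-0.26) lower. Among all tested genes 17.1% rose and 15.0% fell, the shares to set beside these and later marker counts. None of the 9 macrophage markers passed. Their part in the results below was not tested, and in RNA of a whole vessel fewer cells of a type cannot be told apart from less RNA per cell. Absolute depth is unknown. Relative depth was estimated as the most frequent ratio of control 1's low FPKM values to those of each other library. The estimates ran from 0.763 in knockout 1 to 2.44 in control 3, with control 1 at 1. For control 3 only 12.3% of the low genes lay at that ratio.

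Of the 39 genes, 37 reached a mean of 1 FPKM and were tested. In the knockout 16 rose, 2 fell and 19 did not pass, so 48.6% were called, against 32.2% of all tested genes. The rise accounted for that share. Of the members 43.2% were higher, against 17.1% of all tested genes, and 5.41% were lower, against 15.0%. The median log2 difference was 0.21 over the members and 0.01 over all tested genes. For 15 members every knockout lay above every control, and for 2 every knockout lay below, together 45.9% of the tested members against 33.9% of all tested genes. When library sums were made equal without the small RNA rows, the split over all genes moved from 2074 higher and 1819 lower to 2956 higher and 1346 lower, and that of the members to 16 higher and 1 lower.

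**Figure D1:**
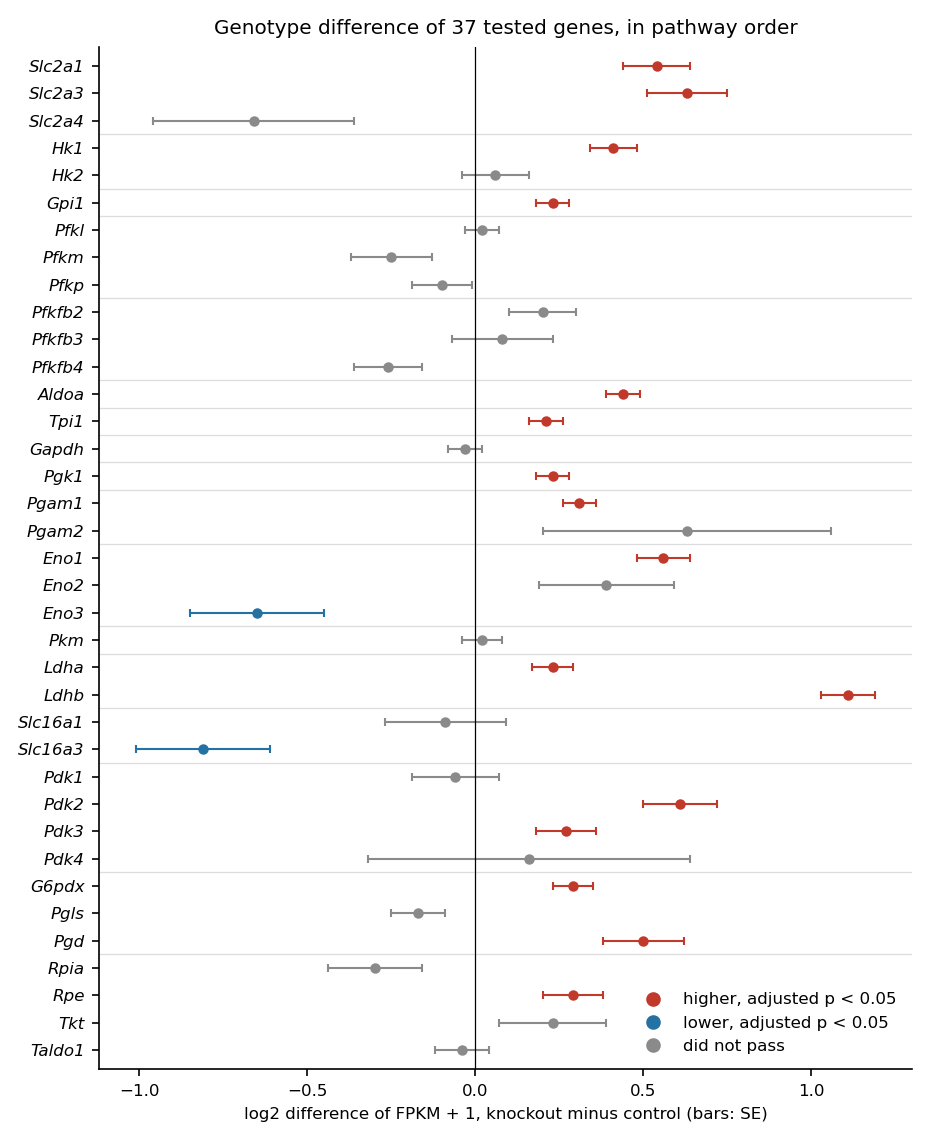
Log2 difference of FPKM + 1 (x axis, knockout minus control, bars are SE from limma) for the 37 tested genes from glucose transport at the top to the pentose phosphate pathway at the bottom. Ldhb lies farthest to the right at 1.11, and the 2 genes that fell, Slc16a3 and Eno3, lie at -0.81 and -0.65.

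The sequences before the start sites of 5 members are shown, picked with their differences known. Ldhb and Ldha are the pair of genes for the subunits of the same enzyme, and rose 2.16-fold and 1.17-fold, Slc2a1 is the entry transporter, Pdk2 guards the exit to mitochondria, and Slc16a3 is the lactate carrier that fell. Each run is the 250 bases before a RefSeq start site, read 5′ to 3′ on the gene's strand in GRCm38.p6. Capitals mark ACGTG, the core of the hypoxia response element, and CACGTG, the E-box bound by MYC, USF and MiT/TFE proteins, which contains ACGTG on both strands.
Ldha: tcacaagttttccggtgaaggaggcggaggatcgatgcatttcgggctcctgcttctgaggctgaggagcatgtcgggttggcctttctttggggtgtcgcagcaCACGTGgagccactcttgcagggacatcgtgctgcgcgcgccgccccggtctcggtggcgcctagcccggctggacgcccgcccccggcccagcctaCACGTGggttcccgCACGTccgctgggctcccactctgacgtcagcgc
Ldhb: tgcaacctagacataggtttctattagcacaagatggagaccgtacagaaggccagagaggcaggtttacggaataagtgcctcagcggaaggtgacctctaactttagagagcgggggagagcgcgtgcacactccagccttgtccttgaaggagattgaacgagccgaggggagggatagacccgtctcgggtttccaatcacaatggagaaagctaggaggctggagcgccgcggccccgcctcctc
Slc2a1: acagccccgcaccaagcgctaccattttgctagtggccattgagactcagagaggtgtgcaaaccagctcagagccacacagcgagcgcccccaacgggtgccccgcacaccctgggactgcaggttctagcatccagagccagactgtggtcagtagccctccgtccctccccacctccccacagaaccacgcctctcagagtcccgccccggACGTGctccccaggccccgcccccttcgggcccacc
Pdk2: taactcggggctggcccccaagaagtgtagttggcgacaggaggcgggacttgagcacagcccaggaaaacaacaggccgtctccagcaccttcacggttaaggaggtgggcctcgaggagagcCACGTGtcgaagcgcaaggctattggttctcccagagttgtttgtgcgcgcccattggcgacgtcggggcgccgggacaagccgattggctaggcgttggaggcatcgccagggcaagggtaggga
Slc16a3: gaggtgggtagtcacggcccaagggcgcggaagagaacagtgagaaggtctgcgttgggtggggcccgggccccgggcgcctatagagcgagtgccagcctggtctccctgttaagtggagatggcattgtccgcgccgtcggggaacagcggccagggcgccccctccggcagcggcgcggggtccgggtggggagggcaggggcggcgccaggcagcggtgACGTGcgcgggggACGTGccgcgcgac
The windows are chr7:46845554-46845803 (plus strand) for Ldha, chr6:142507958-142508207 (minus) for Ldhb, chr4:119108495-119108744 (plus) for Slc2a1, chr11:95041372-95041621 (minus) for Pdk2 and chr11:120948817-120949066 (plus) for Slc16a3. The Ldha window held an E-box 145 and another 48 bases before the start, and a further ACGTG on the opposite strand 34 bases before it. Pdk2 held an E-box 126 bases before the start. Slc2a1 held ACGTG at 36 bases, and Slc16a3 held it at 27 and 14 bases. The Ldhb window, of the gene that rose most, held no such letters. RefSeq and GENCODE place some starts differently. The nearest GENCODE start lay 35 bases downstream of the RefSeq start for Ldha and 17 for Pdk2, 34 bases upstream for Slc2a1, and at the same base for Ldhb and Slc16a3. The Ldha start, unlike the other 4, was not found in a GENCODE transcript sequence. For the nearest transcript the offset of 35 bases already implies that. Far upstream, at 46841475, 1 GENCODE transcript of Ldha begins. Ldha and Pdk2 each have 1 other RefSeq window, which held neither motif.

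RefSeq windows were found for 37 of the 39 genes, 57 windows in all, and 13 genes had several. A gene was counted where any of its windows held the motif, which favours genes with several windows. ACGTG on either strand occurred in 14 of the 37 genes (37.8%), against 20% of 17492 protein-coding genes, and in 31.6% of the members' windows against 16.6% of all 32851. CACGTG occurred in 6 genes (16.2%), against 7.61%, and in 10.5% of the members' windows against 6.63% of the protein-coding windows. TGACNNNGC, the core of the antioxidant response element, occurred in 4 genes (10.8%), against 12.0%. Among the genes that rose, 7 of 15 with a window held ACGTG, as did 6 of 18 that did not pass. These are counts of letters in a short window and say nothing of a factor's binding. Any part of these motifs in the differences was not tested.

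Of the glucose transporters Slc2a1 and Slc2a3 rose, and Slc2a4 did not pass. Slc2a1 (GLUT1, the basal transporter of most cells, chromosome 4, 119108711 to 119137983 in mm10) measured 27.0, 36.4, 26.9 and 33.7 FPKM in controls and 44.3, 44.4, 44.7 and 46.8 in knockouts. All 4 knockouts lay above all controls, and they were closer to each other than the controls were. Slc2a1 rose from 31 ± 4.77 to 45.0 ± 1.18 FPKM (0.54 on the log2 scale, SE 0.10, adjusted p = 0.00393). Slc2a3 (GLUT3, a high-affinity transporter of neurons and blood cells) had 0.841 to 1.43 FPKM in controls and 1.89 to 2.38 in knockouts. It rose 2.07-fold (log2 difference 0.63, adjusted p = 0.00376) but remained a small part of the transporter pool. Slc2a4 (GLUT4, the insulin-regulated transporter of muscle and fat) measured 22.0, 36.6, 16.9 and 36.4 FPKM in controls and 9.83, 17.1, 23.0 and 18.4 in knockouts. The groups overlapped and it did not pass (log2 difference -0.66, SE 0.30, adjusted p = 0.125).

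As a share of the 3 transporters' summed FPKM, Slc2a1 took 52.7% ± 5.84 in controls and 70.5% ± 5.94 in knockouts, and Slc2a4 took 45.6% ± 5.96 and 26.2% ± 6.49. Neither share overlapped between the groups, whereas the sum did, at 60.0 ± 14.8 against 64.3 ± 5.83 FPKM. Fat cells also make Slc2a4. The 12 fat cell markers summed to 1191, 526, 429 and 505 FPKM in controls and to 407, 410.1, 710.4 and 553 in knockouts, with 1 of 11 tested lower. Slc2a4 had the order of these sums among the knockouts, but among the controls it was highest in controls 2 and 4. The part of fat cells in the Slc2a4 values was not tested.

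Of the hexokinases, which trap glucose as glucose-6-phosphate, Hk1 rose and Hk2 did not pass, and the difference between them was not tested. Hk1, the ubiquitous form (chromosome 10, 62268855 to 62379908), had 23.8, 28.0, 24.5 and 28.9 FPKM in controls and 35.7, 34.0, 35.7 and 35.2 in knockouts. It rose 1.34-fold without overlap (log2 difference 0.41, SE 0.07, adjusted p = 0.00295). Hk2, the insulin-responsive form of muscle and a classical mTORC1 and hypoxia target, was 10.4 ± 1.67 and 10.8 ± 0.546 FPKM, with every knockout inside the range of the controls (log2 difference 0.06, SE 0.10, adjusted p = 0.683). Hk1 was the more abundant in all 8 libraries, and its share of the pair overlapped between the groups (66.8% to 77.0% in controls, 75.6% to 77.8% in knockouts). Gpi1, the isomerase that makes fructose-6-phosphate, rose from 134 ± 4.27 to 158 ± 2.67 FPKM (log2 difference 0.23, adjusted p = 0.00633).

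At the committed step of glycolysis none of the phosphofructokinase genes passed. Pfkp, the form first described in platelets and the most abundant here, had 49.8 ± 4.01 FPKM in controls and 46.4 ± 4.64 in knockouts. Pfkm, the muscle form, had 36.0 ± 5.0 and 30.1 ± 3.71 FPKM (log2 difference -0.25, SE 0.12, adjusted p = 0.132). It was called lower when odd or even replicate number, described below, was a covariate (-0.25, adjusted p = 0.00512). Pfkl, the liver form, had 18.4 ± 0.646 and 18.7 ± 0.472 FPKM. The sum of the phosphofructokinases overlapped between groups, at 104 ± 3.48 against 95.2 ± 8.34 FPKM, and so did each isoform's share.

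The Pfkfb genes encode the enzymes that make and break fructose-2,6-bisphosphate, the strongest activator of phosphofructokinase, and none passed either. Pfkfb3, the form with the highest kinase activity and the most abundant of the family, had 14.7 ± 2.0 and 15.8 ± 3.54 FPKM (log2 difference 0.08, SE 0.15). Pfkfb2 had 4.27 ± 0.542 and 5.03 ± 0.583 FPKM (0.20, adjusted p = 0.163), and was called higher with that covariate (0.20, adjusted p = 0.0302). Pfkfb4 had 2.65 to 3.76 FPKM in controls and 2.23 to 2.56 in knockouts, without overlap, yet missed the threshold (log2 difference -0.26, SE 0.10, adjusted p = 0.0649). Pfkfb1 stayed under the filter and was not tested, with 0.695 to 1.4 FPKM in controls and 0.386 to 1.17 in knockouts.

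Of the 10 tested genes below that step 5 rose (Aldoa, Tpi1, Pgk1, Pgam1 and Eno1), Eno3 fell, and Gapdh, Pgam2, Eno2 and Pkm did not pass. Among all tested genes 17.1% rose and 15.0% fell. Aldoa, the aldolase of muscle and most other tissues (chromosome 7, 126795234 to 126800751), measured 449.9, 441, 424 and 428 FPKM in controls and 573, 595, 614 and 577 in knockouts. It was among the most abundant members and rose 1.35-fold with little spread (log2 difference 0.44, SE 0.05, adjusted p = 3.52e-04). Aldoc, the brain form, was under the filter at 0.248 ± 0.0449 FPKM in controls and 1.23 ± 0.175 in knockouts. That is a 4.94-fold ratio at a level where Aldoa supplied 99.8% of aldolase FPKM in the knockouts.

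Triosephosphate isomerase (Tpi1) rose from 141 ± 3.92 to 163 ± 8.17 FPKM (log2 difference 0.21, adjusted p = 0.0179). Phosphoglycerate kinase (Pgk1), which makes the first ATP of the pathway, rose from 62.3 ± 1.66 to 73.5 ± 3.66 FPKM (0.23, adjusted p = 0.011). Pgam1, the ubiquitous phosphoglycerate mutase, rose from 106 ± 3.21 to 131 ± 3.94 FPKM (0.31, adjusted p = 0.00189). For each of these the lowest knockout stood above the highest control.

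Gapdh in the middle of the pathway and Pkm at its end did not pass. Gapdh, the dehydrogenase that reduces NAD+ and a common reference gene, measured 501, 511, 496 and 495 FPKM in controls and 477, 485, 525 and 469 in knockouts. The groups overlapped (log2 difference -0.03, SE 0.05, adjusted p = 0.642), and with quantile normalization the sign turned and it was called higher (0.18, adjusted p = 0.0329). Pkm, which encodes both muscle-type pyruvate kinases through alternative exons that gene-level values cannot separate, had 303 ± 17.9 and 307 ± 17.5 FPKM (0.02, SE 0.06, adjusted p = 0.838). Summed over the 17 genes from hexokinase to pyruvate kinase, the controls held 1909 to 1949 FPKM and the knockouts 2136 to 2262. The largest part of that gap was Aldoa, at 436 ± 11.9 against 589.7 ± 19.1 FPKM. Eno1b, a copy of Eno1 that is described below and fell, is not in the sum. Of these 17 genes 16 were tested, and 7 rose, 1 fell and 8 did not pass. The shares over all tested genes were 17.1% higher and 15.0% lower.

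**Figure D2:**
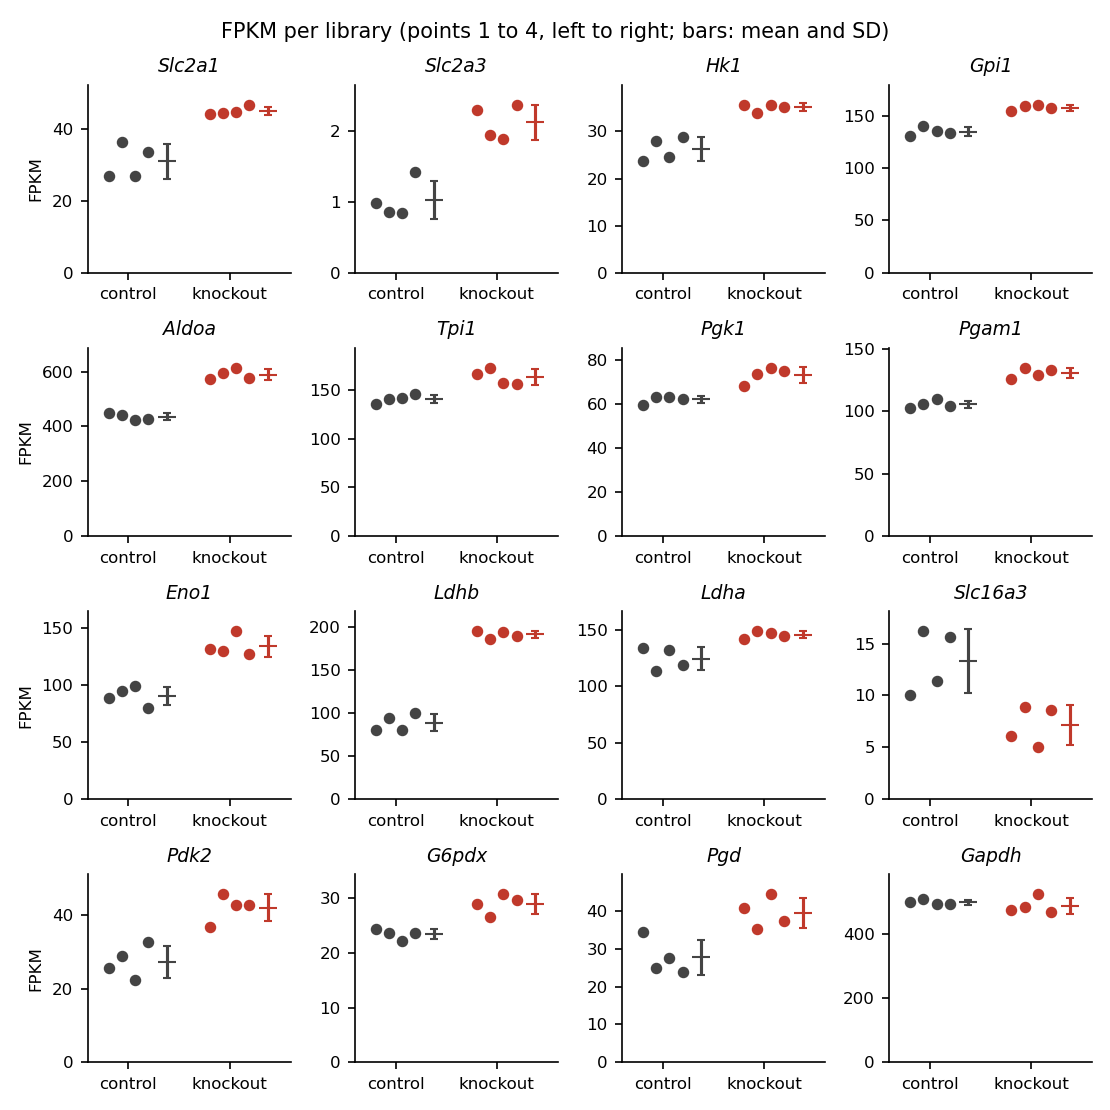
FPKM (y axis, from 0) in each of the 8 libraries for 16 genes, with controls in grey, knockouts in red, and the mean and SD beside each group. The groups are separate for all of these genes except Gapdh, with Ldhb farthest apart as a ratio (2.16-fold) at 88.7 ± 9.79 against 191 ± 4.35.

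Eno1 rose at the enolase step, before pyruvate kinase, and the size of the rise depended on a gene copy. Eno1, the ubiquitous alpha-enolase (chromosome 4, 150236721 to 150248879), measured 88.6, 94.6, 98.6 and 79.8 FPKM in controls and 131, 130, 147 and 127 in knockouts. The groups did not overlap, and Eno1 rose 1.48-fold (log2 difference 0.56, SE 0.08, adjusted p = 9.78e-04). Eno1b, a retrotransposed copy of Eno1, has a row of its own with 27.8, 14.3, 15.5 and 25.4 FPKM in controls and 3.95, 3.55, 3.75 and 3.48 in knockouts. It fell to 0.178 times the control level (log2 difference -2.16, SE 0.20, adjusted p = 1.44e-04). Of the distinct 50-base words of Eno1's protein-coding transcripts, 48.4% also occur in Eno1b, so fragments of the 2 genes can be assigned to either. With both rows summed, an alternative chosen after these values were seen, the controls had 116, 109, 114 and 105 FPKM and the knockouts 135, 134, 151 and 131. The sum was still higher without overlap, but 1.24-fold (log2 difference 0.30, SE 0.06, adjusted p = 0.00644). The Eno1 row alone has the largest log2 difference of the glycolytic enzymes that rose, whereas the sum lies below Aldoa (0.44) and Hk1 (0.41).

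The muscle form Eno3 (beta-enolase) had 9.62, 12.6, 9.87 and 16.5 FPKM in controls and 10.6, 6.48, 5.69 and 6.75 in knockouts. It fell to 0.608 times the control level (log2 difference -0.65, SE 0.20, adjusted p = 0.0388), with knockout 1 inside the control range. That call was lost in 9 of 23 alternatives, among them without control 2 (-0.62, adjusted p = 0.0901), without control 4 (-0.50, adjusted p = 0.0854) and without knockouts 2, 3 or 4. Eno2, the neuronal form, had 6.0 ± 1.82 and 8.02 ± 1.6 FPKM and did not pass (0.39, adjusted p = 0.167). With odd or even replicate number as a covariate Eno2 was called higher (0.39, adjusted p = 0.00331). Nerve and Schwann cell markers were low, with sums of 7.53 to 9.86 FPKM in controls and 3.96 to 6.32 in knockouts, and the 3 that could be tested fell. Pgam2, the muscle mutase, had 0.709, 1.05, 0.645 and 5.41 FPKM in controls and 3.77, 2.17, 1.73 and 4.09 in knockouts, and did not pass (0.63, SE 0.43, adjusted p = 0.296).

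Striated muscle markers differed between libraries. The 18 markers summed to 54.0, 65.1, 60.2 and 348 FPKM in the controls and to 180.3, 94.1, 56.8 and 166 in the knockouts. Control 4, highest in the markers, was also highest in Pgam2 and Eno3. Without control 4 the knockouts' Pgam2 was called higher (log2 difference 1.09, adjusted p = 0.0117). So it was with a covariate, the mean log2(FPKM + 1) of the 12 tested markers (0.92, adjusted p = 0.00108). Eno3 kept its call with that covariate and lost it without control 4. The sum mixes skeletal and cardiac genes. Skeletal Acta1 had 65.0 FPKM in control 4 and 0.0731 to 0.722 in the other 7 libraries, and skeletal Myh1 had 10.8 in control 4 and at most 0.0196 elsewhere, listed at 0 in all 4 knockouts. Cardiac Myh6 had 25.6 and 17.0 FPKM in knockouts 1 and 4 and 0.118 to 1.58 in the others. Of the 12 markers tested Tnnt2, the cardiac troponin T, was higher (log2 difference 1.07, adjusted p = 0.00492), and Ckm (-1.93) and Actn2 (-0.74) were lower. The part of striated muscle in the Pgam2 and Eno3 values was not tested.

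**Figure D3:**
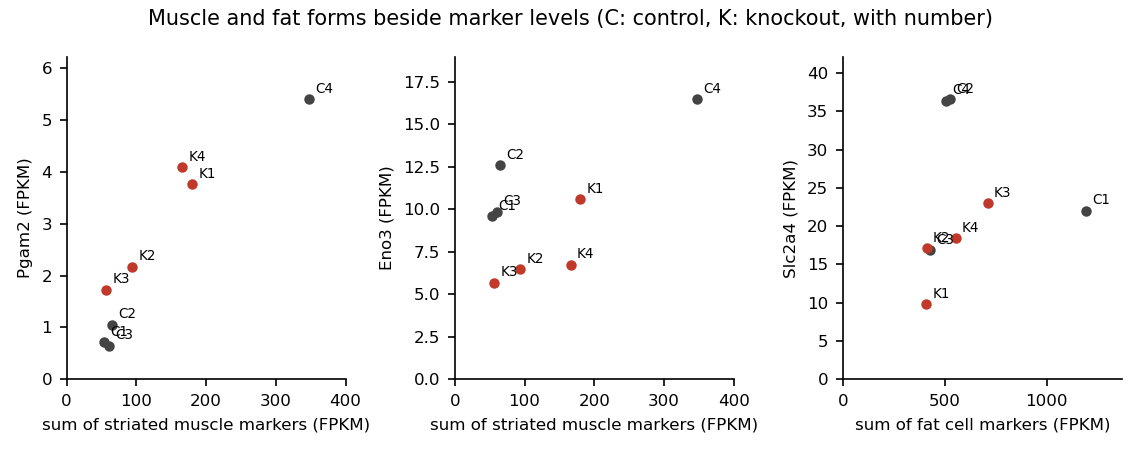
FPKM of Pgam2, Eno3 and Slc2a4 (y axes) against the summed FPKM of striated muscle or fat cell markers (x axes), 1 point per library, controls in grey and knockouts in red. Control 4 stands alone at 348 FPKM of striated muscle markers, and control 1 at 1191 FPKM of fat cell markers.

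Lactate dehydrogenase held the largest log2 difference among the 37 tested members. The enzyme is a tetramer of the Ldha subunit, prominent in skeletal muscle, and the Ldhb subunit, prominent in heart. Ldhb (chromosome 6, 142490249 to 142507957), whose promoter window above held none of the searched motifs, measured 80.3, 94.3, 80.5 and 99.6 FPKM in controls and 195, 186, 194 and 189.7 in knockouts. The lowest knockout stood far above the highest control, and Ldhb rose 2.16-fold (log2 difference 1.11, SE 0.08, adjusted p = 4.32e-05). Ldha (chromosome 7, 46841475 to 46855627) measured 134, 114, 132 and 119 FPKM in controls and 142, 149, 147 and 145 in knockouts. It rose 1.17-fold (log2 difference 0.23, SE 0.06, adjusted p = 0.0237), with no overlap but a small gap. The Ldha call was lost without control 2 (adjusted p = 0.0556), control 4 (0.0578), knockout 2 (0.0579) or knockout 3 (0.058).

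The balance of the subunits differed between the groups. Ldhb made up 41.6% ± 4.47 of lactate dehydrogenase FPKM in controls, from 37.5% to 45.6%, and 56.7% ± 0.941 in knockouts, from 55.5% to 57.8%. In every control Ldha was the larger part and in every knockout Ldhb was. The sum of both went from 213 ± 4.14 to 337 ± 3.45 FPKM, without overlap.

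**Figure D4:**
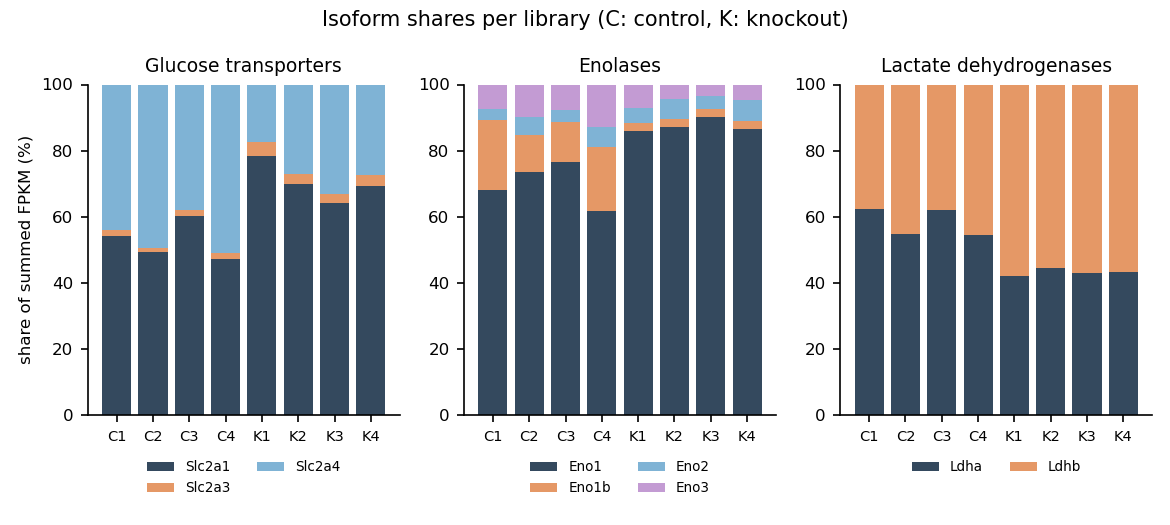
Stacked bars give each gene's percent of the summed FPKM of its family (y axis, 0 to 100) in controls C1 to C4 and knockouts K1 to K4, for glucose transporters, enolases with the copy Eno1b, and lactate dehydrogenases. Slc2a4, Eno1b and Ldha are larger parts in every control than in any knockout.

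Of the lactate carriers Slc16a3 fell and Slc16a1 did not pass. Slc16a3 (MCT4, the exporter of glycolytic muscle, chromosome 11, 120948480 to 120960868) measured 10, 16.2, 11.4 and 15.6 FPKM in controls and 6.05, 8.93, 5.04 and 8.64 in knockouts. All knockouts lay below all controls, and it fell to 0.539 times the control level (log2 difference -0.81, SE 0.20, adjusted p = 0.0143). Slc16a1 (MCT1, which carries lactate both ways in most cells) had 3.22 ± 1.07 and 2.86 ± 0.332 FPKM and did not pass (-0.09, SE 0.18, adjusted p = 0.713). Slc16a3 and Ldhb thus differed in opposite directions in all 4 knockouts. The summed FPKM of Slc16a1 and Slc16a3 went from 16.5 ± 2.46 to 10 ± 2.08 without overlap. That sum leaves out Slc16a7, a further monocarboxylate transporter that did not pass (log2 difference 0.15, adjusted p = 0.283). Slc16a7 had 13.5, 13.2, 11.8 and 12.3 FPKM in controls and 11.5, 15.9, 13.9 and 15.9 in knockouts.

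Of the pyruvate dehydrogenase kinases, which phosphorylate and shut down pyruvate dehydrogenase, Pdk2 had the highest mean in both groups. Pdk4 exceeded it in control 1 and knockout 1. Pdk2, the most widely expressed of these kinases (chromosome 11, 95026258 to 95041354), measured 25.7, 28.7, 22.2 and 32.5 FPKM in controls and 36.8, 45.5, 42.6 and 42.7 in knockouts. It rose 1.54-fold without overlap (log2 difference 0.61, SE 0.11, adjusted p = 0.00423). Pdk3 rose from 15.2 ± 0.853 to 18.7 ± 2.21 FPKM (0.27, SE 0.09, adjusted p = 0.0402), with knockout 1 inside the control range. The Pdk3 call was lost in 12 of 23 alternatives, among them leaving out any 1 library except control 2 or knockout 1. Pdk1, the form induced by hypoxia, had 3.57 ± 0.603 and 3.38 ± 0.624 FPKM (-0.06, adjusted p = 0.744). Pdk4, induced by fasting and fatty acids, spanned 11.5 to 42.5 FPKM in controls and 12.6 to 39.9 in knockouts (0.16, SE 0.48, adjusted p = 0.83).

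In the pentose phosphate pathway the NADPH-making enzymes rose. G6pdx, the rate-limiting glucose-6-phosphate dehydrogenase (chromosome X, 74409483 to 74429194), measured 24.4, 23.7, 22.1 and 23.7 FPKM in controls and 29.0, 26.5, 30.7 and 29.6 in knockouts. It rose 1.23-fold (log2 difference 0.29, SE 0.06, adjusted p = 0.00727). Pgd, the 6-phosphogluconate dehydrogenase that makes the second NADPH, measured 34.3, 25.0, 27.5 and 23.9 FPKM in controls and 40.8, 35.2, 44.3 and 37.3 in knockouts. It rose 1.42-fold (0.50, SE 0.12, adjusted p = 0.0115), and for both genes the groups were separate. Pgls, the lactonase between them, makes no NADPH and had 44.3 ± 1.57 and 39.4 ± 4.25 FPKM (-0.17, SE 0.08, adjusted p = 0.133).

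In the non-oxidative branch, which interconverts sugar phosphates, 1 of 4 genes rose, against 17.1% of all tested genes. Rpe, the ribulose-phosphate epimerase, rose from 9.39 ± 1.22 to 11.6 ± 0.766 FPKM (0.29 on the log2 scale, SE 0.09, adjusted p = 0.0373), and its call was lost in 12 of 23 alternatives, among them leaving out any 1 library except control 1. Rpia, the isomerase that makes ribose-5-phosphate, had 9.45 ± 1.37 and 7.55 ± 1.55 FPKM (-0.30, SE 0.14, adjusted p = 0.149). With odd or even replicate number as a covariate Rpia was called lower (-0.30, adjusted p = 0.0397). Tkt (transketolase) had 71.8, 41.8, 53.7 and 45.5 FPKM in controls and 57.8, 54.7, 69.7 and 63.4 in knockouts, and did not pass (0.23, SE 0.16, adjusted p = 0.303). Control 1 was highest in Tkt and in fat cell markers, and Tkt was called higher without control 1 (0.38, adjusted p = 0.0372). Tkt was also called higher with the mean log2(FPKM + 1) of the 11 tested fat markers as a covariate (0.37, adjusted p = 0.0119). Taldo1 (transaldolase) had 80.4 ± 9.39 and 77.8 ± 3.42 FPKM (-0.04, adjusted p = 0.745).

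Libraries numbered 1 and 3 differed from those numbered 2 and 4 in both genotypes, a split known from an earlier view of these data and named as a batch by no label. With genotype in the model, 6 of the 37 members differed between odd and even numbers (16.2%, against 9.11% of all tested genes). Pdk4 was higher in the odd numbers, with 42.5 and 20 FPKM in controls 1 and 3, 39.9 and 28.8 in knockouts 1 and 3, and 11.5 to 12.9 in the other 4 libraries (log2 difference 1.29, adjusted p = 0.0131). Control 1 was highest in both Pdk4 and summed fat cell markers (1191 FPKM), knockout 3, with 28.8 FPKM of Pdk4, was next in the markers (710.4), and knockout 1, with 39.9 FPKM of Pdk4, was lowest in them (407). The part of fat cells in this pattern was not tested. Pfkm (-0.31, adjusted p = 0.0134), Pfkfb2 (-0.23, just under the threshold), Pfkfb3 (-0.41, adjusted p = 0.0126), Eno2 (-0.55, adjusted p = 0.00737) and Slc16a3 (-0.56, adjusted p = 0.00626) were lower in the odd numbers. The genotype difference itself was not shown to depend on the number. In limma's interaction test 0 of 37 members passed (lowest adjusted p = 0.102, 7 at an unadjusted p under 0.05), against 1.62% of all genes. All 18 called members differed in the same direction within the odd and within the even libraries. Where the groups did not overlap, as for all of these except Eno3 and Pdk3, that had to be so. It therefore does not bear on whether the difference depends on the number.

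**Figure D5:**
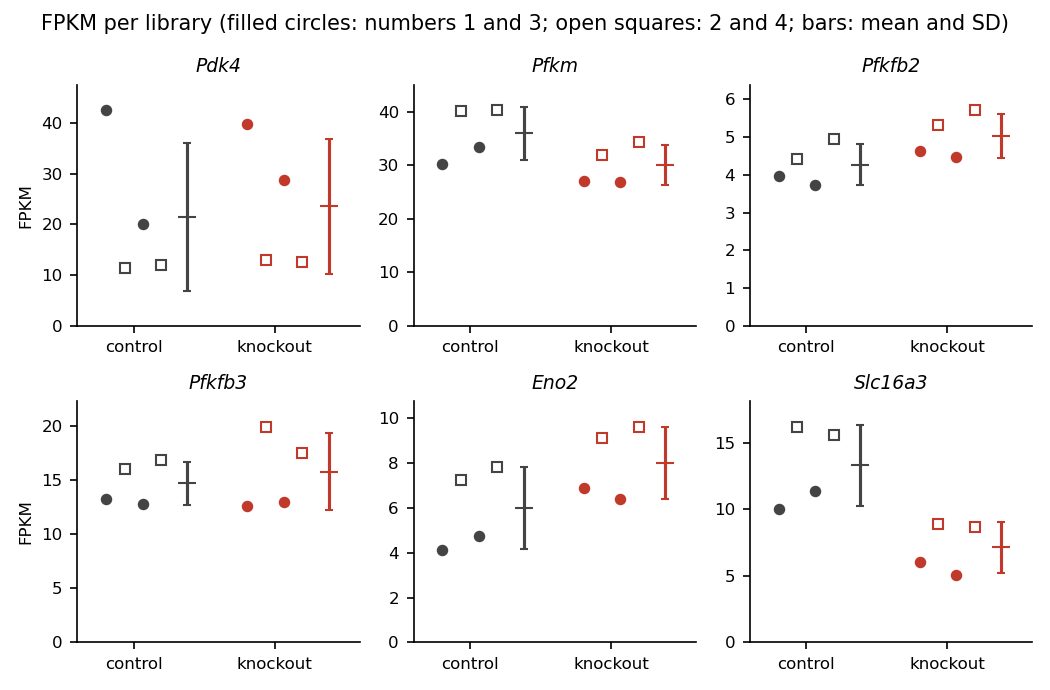
FPKM (y axis, from 0) per library of the 6 members that differed between odd and even numbers, with filled circles for libraries 1 and 3, open squares for 2 and 4, and bars for mean and SD. Pdk4 reaches 42.5 in control 1 and stays at 11.5 to 12.9 in all even-numbered libraries.

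Neighbouring pathways were mixed, and their counts stand against 17.1% higher and 15.0% lower among all tested genes. Of 14 tested side-step enzymes and further transporters 2 rose and 3 fell. Galm (galactose mutarotase, which flips sugar anomers ahead of phosphorylation) rose from 5.46 ± 0.841 to 18.1 ± 1.34 FPKM (log2 difference 1.57, adjusted p = 2.56e-05), more than any member. H6pd, the G6pdx counterpart of the endoplasmic reticulum, rose too (0.37, adjusted p = 0.0106). Adpgk, an ADP-dependent glucokinase, fell from 18.7 ± 2.09 to 10.1 ± 0.551 FPKM (-0.83, adjusted p = 2.07e-04), as did the transporters Slc2a12 (-0.63) and Slc2a10 (-0.27). Of 21 glycogen genes 1 rose and 2 fell. Gyg (glycogenin, the primer of glycogen) rose from 44.7 ± 0.945 to 70.8 ± 3.6 FPKM (0.65, adjusted p = 8.53e-05), while Ppp1r3d (-0.47) and Ppp1r3c (-0.45), which target phosphatase to glycogen, fell.

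Of 9 genes of the shuttles that carry NADH electrons into mitochondria 4 rose and 0 fell (all tested genes, 17.1% and 15.0%), led by Got1 (cytosolic aspartate aminotransferase, 0.81), Gpd1l (0.67) and mitochondrial Gpd2 (0.52). Of 11 genes of pyruvate entry Pdp1, the phosphatase that opposes the Pdk kinases, rose (0.25, adjusted p = 0.0373) and Mpc2, a subunit of the mitochondrial pyruvate carrier, fell (-0.26, adjusted p = 0.0405). Of 7 hexosamine genes Uap1 fell (-0.33). Of 4 polyol and fructose genes Akr1b8, an aldose reductase-like enzyme, rose (0.69) and Khk, ketohexokinase, fell (-0.49).

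Of 18 genes listed under transcription factors and oxygen sensing 2 rose and 3 fell, against 32.2% called either way among all tested genes. Hif1a (the oxygen-regulated subunit of HIF-1, an activator of glycolytic genes) rose from 32.7 ± 3.67 to 53.7 ± 6.73 FPKM (log2 difference 0.70, adjusted p = 0.00139), and Nfe2l2 (NRF2, an activator of pentose phosphate genes) rose from 36.3 ± 5.29 to 50.8 ± 4.61 (0.48, adjusted p = 0.0101). Epas1, the HIF-2 counterpart of Hif1a, fell from 108 ± 6.18 to 76.8 ± 10.6 FPKM (-0.49, adjusted p = 0.00558), and Myc fell from 1.96 ± 0.412 to 1.22 ± 0.28 (-0.42, adjusted p = 0.0386). Arrdc4, an arrestin induced by the glucose-sensing MondoA, fell from 5.2 ± 1.06 to 2.01 ± 0.492 FPKM (-1.04, adjusted p = 0.00128). HIF-1 protein is regulated by its stability, which RNA does not show. Of 13 hypoxia-induced genes outside glycolysis Mif (0.57), Bnip3 (0.60) and Kdm3a (0.43) rose, Adm fell (-0.55) and 9 did not pass, with a median of 0.09.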

How the data were processed

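The deposited values are FPKM, 1 column per library and 1 row per gene symbol. The submitters' processing notes list TopHat2, Cufflinks, Cuffdiff and the build mm10. The annotation, the strand setting and any scaling across libraries were not given in the sources used here. Per the labels' protocols, polyA RNA was selected from 500 ng total, of RIN over 7. No label says that the replicates are separate animals, so the p-values reflect sample-to-sample spread that could be technical.

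Genes averaging 1 FPKM or more over the 8 libraries were tested on log2(FPKM + 1) with limma 3.58.1 in R 4.3.3 (lmFit, eBayes with a trend, two-sided), genotype as the only term, after a check on simulated data. Shares of isoforms are descriptions without a test. Coordinates come from GENCODE M21 and promoter windows from RefSeq, both of GRCm38 (mm10). Every member was described; from each neighbouring list the called genes with the largest log2 differences were named, at most 3 in each direction. Members and lists were chosen with earlier results of these data known. Alternatives covered filters, pseudocounts, scalings, weights, covariates, a replicate block and left-out libraries.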

Additional observations from a re-analysis of the deposited data

Results flagged for a closer look

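In 78 groups of 4 libraries (39 genes in each genotype), 3 had a library set far from the others, its gap to the next passing Dixon's 95% critical value. Chance flags about 1 in 20 such groups. Pgam2 had 5.41 FPKM in control 4, against 0.645 to 1.05 in the other controls. Slc2a1 had 46.8 FPKM in knockout 4, against 44.3 to 44.7 in the other knockouts. Rpe had 12.8 FPKM in knockout 4, against 11.2 to 11.4 in the other knockouts.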

How the results depend on the processing

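Of the 18 called members 8 kept their call in all 23 alternatives (Slc2a1, Hk1, Aldoa, Pgam1, Eno1, Ldhb, Slc16a3 and Pdk2). Another 6 lost it only within the odd-numbered or the even-numbered libraries alone, and 4 lost it elsewhere too (Eno3, Ldha, Pdk3 and Rpe). No called member changed sign. Of the 19 that did not pass 9 passed in some alternative, and Gapdh did so with its sign turned (0.18 with quantile normalization). Aldoc was called without the filter (log2 difference 0.83, adjusted p = 1.87e-04). The members that fell numbered 2, against 1 without a filter, with equal sums or within odd numbers, and 4 within even numbers or when odd against even entered as a term. Leaving out each library in turn gave 13 to 16 members higher and 1 to 2 lower. Same-numbered libraries of the 2 genotypes correlated at 0.0656, 0.138, 0.135 and 0.173, too little for every pair to count as paired. Unlike numbers that were both odd correlated at 0.149 (control 3, knockout 1) and 0.141 (control 1, knockout 3). For both even the values were 0.16 (control 4, knockout 2) and 0.016 (control 2, knockout 4). Odd with even ran from -0.193 to -0.0547. With the replicate block 18 members rose and 2 fell, against 2349 and 2122 of all genes. Eno3 lost its call in that block (-0.65). Depth was only estimated, in relative terms, which limits what can be said of Aldoc, Pfkfb1 and Pgam2.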

Other observations

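Copies elsewhere in the genome limit some members more than others. Of the 39 genes 25 shared under 5% of their 50-base transcript words with any other GENCODE gene, and 7 shared over 20%. Pgk1 shared 68.0%, Gapdh 58.4%, Eno1 49.5% and Pgam1 41.5%. Copies of Pgk1 and Pgam1 had no row of their own in the table. The Gapdh copy Gm12070 had 16.7 to 19.6 FPKM in controls and 15.8 to 21.5 in knockouts, with a log2 difference of -0.006 (limma, adjusted p = 0.967). Slc2a1, Hk1, Slc16a3, Pdk2 and Pgd shared no such word, and Ldhb shared 21.0% with a single copy that has no row.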
